A study of Mus musculus with 15 samples.

Results

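Goblet cell mucins and the proteins secreted with them were followed across the colons of C57BL/6 (B6) and Irf1-/- mice. The members were given as 10 gene symbols, namely Muc2, Muc3, Muc4, Muc13, Tff3, Fcgbp, Zg16, Agr2, Spdef and Clca3, and 9 of them were in all 3 deposited count tables. Muc3 was in none of the tables and was not analysed here. The 9 genes are among 12897 genes in any table and 12370 in all of them.

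Goblet cells are the mucus-secreting cells of the intestinal epithelium and are abundant in the distal colon. They fold and glycosylate the gel-forming mucin MUC2 in the endoplasmic reticulum (ER) and Golgi, pack it into granules with partner proteins and release it as the layer that keeps bacteria away from the epithelium. The transcription factors ATOH1 and SPDEF drive the secretory lineage and goblet cell maturation, and mice that lack Muc2 develop colitis.

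RNA-seq was performed on the distal colon of 15 mice, 3 in each of 5 groups, all of the C57BL/6 strain. Untreated B6 mice formed 2 sets, called control set 1 and control set 2 here. The other groups were untreated Irf1-/- mutants, B6 mice at day 26 (D26) of AOM/DSS treatment and Irf1-/- mutants at D26. Treated mice had received azoxymethane (AOM), which is carcinogenic for the colon, once on D1 (7 mg/kg). On D8 to D11 they drank water with 2% dextran sodium sulfate (DSS), which damages the epithelium. For its AOM/DSS experiments the study used mice of 8 to 10 weeks. The mutants lack Irf1, an interferon-responsive transcription factor, in every tissue from the germ line on. The labels name no difference between the control sets, give no sex and describe no batches. Each library was homogenized whole tissue from 1 mouse, so fewer goblet cells and less RNA per goblet cell cannot be told apart.

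Libraries held 22266607 to 22869853 reads on genes. Irf1 reads were still counted in the mutants, at 79.4 to 123 CPM (counts scaled to a common library size), against 128 to 227 CPM in B6 mice, and all 6 mutant libraries were below all 9 B6 libraries. The summed level of 13 pan-epithelial markers was 9056 to 11450 CPM over the 15 libraries. The 10 squamous keratinocyte markers, genes of the anal canal and skin, summed to 378.5 CPM in the lowest and 1759 CPM in the highest library, and all 10 were in the tables. The 3 treated B6 libraries had a steeper relation of counts to the GC content of genes (slopes of 0.136 to 0.285 log2 units per 10% GC) than the other 12 libraries (-0.124 to 0.0316). Xist, the RNA of the inactive X chromosome, was at 25.2, 5.97 and 2328 CPM in treated B6 mice 1, 2 and 3 and at 11.6 CPM in treated Irf1-/- mouse 1. It was at 321 CPM in mouse 2 of control set 1 and from 887.6 to 3729 CPM in the other 10 libraries. The part of sex and of squamous tissue in the levels below was not tested. For the members, values after a GC correction are given where it changed a call or a direction.

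The proximal promoters of the gel-forming mucin Muc2 and of its partner Fcgbp are shown because both genes passed an adjusted p of 0.05 in the B6 response below. Of the 9 genes, 6 had a RefSeq promoter (GRCm38.p6) in the table used, and Tff3, Zg16 and Clca3 had none. Only the 250 bases before the start are given, and no exon of GENCODE M21 lies in either window. Agr2 and Spdef passed there too, but exons of M21 reach into their windows, which are not shown. Capitals mark exact matches to the E-box CAGCTG and to TATAAA, the letters of a TATA box.
Muc2 (chr7:141690090-141690339, plus strand): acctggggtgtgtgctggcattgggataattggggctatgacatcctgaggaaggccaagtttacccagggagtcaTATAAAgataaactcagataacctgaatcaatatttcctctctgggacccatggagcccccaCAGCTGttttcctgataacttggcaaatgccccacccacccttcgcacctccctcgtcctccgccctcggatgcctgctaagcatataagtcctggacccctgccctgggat
Fcgbp (chr7:28070986-28071235, plus strand): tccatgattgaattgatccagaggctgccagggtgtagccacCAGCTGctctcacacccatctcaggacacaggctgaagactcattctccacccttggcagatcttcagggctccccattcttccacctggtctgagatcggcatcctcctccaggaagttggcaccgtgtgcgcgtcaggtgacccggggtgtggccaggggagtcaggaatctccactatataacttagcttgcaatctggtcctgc

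The E-box, a sequence that ATOH1 can bind, was found once in each of these windows, 112 to 107 bases before the start in Muc2 and 208 to 203 bases before it in Fcgbp. It was in none of the other 5 windows of the members (Muc13 has 2 starts) and in 13.0% of all 32851 promoter windows of the same length. TATAAA was found in Muc2, 174 to 169 bases before the start, and in Muc4, 36 to 31 bases before it, against 12.4% of all windows. Near matches, such as tataag in the Muc2 window and tataac in the Fcgbp window, were not searched for and are not marked. None of the 7 windows held CCGGAT, an ETS core (4.94% of all windows), or TGTTTAC, a forkhead site (3.17%), on either strand. These matches describe letters in a window and were not tested as binding sites.

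Muc2 encodes the gel-forming mucin that makes up the colonic mucus layer. It was at 1828, 988.5 and 1721 CPM in the 3 mice of control set 1 and at 2472, 2055 and 2731 CPM in control set 2. Untreated Irf1-/- mutants had 3810, 3621 and 3748 CPM, treated B6 mice 2668, 7000 and 4821 CPM, and treated mutants 4311, 4657 and 4293 CPM. All 6 mutant libraries were above all 6 untreated B6 libraries. Among treated B6 mice, mouse 1 lay within the range of control set 2 while mouse 2 had the highest Muc2 level of all 15 libraries. The coefficient of variation was 30.2% and 14.1% in control sets 1 and 2, 44.8% in treated B6 mice and 2.59% and 4.64% in untreated and treated mutants. This spread of 3 mice was not tested. Among treated mice Muc4 and Spdef also varied more in B6 mice, while Muc13, Tff3, Fcgbp, Zg16, Agr2 and Clca3 varied more in mutants.

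Fcgbp, a large protein with von Willebrand D domains that is found in mucus with MUC2, was at 7876, 4630 and 7408 CPM in control set 1, at 8802, 10030 and 12040 CPM in control set 2 and at 9807, 9829 and 9238 CPM in untreated mutants. Treated B6 mice had 13050, 15050 and 14490 CPM, above all 9 untreated libraries. Treated mutants had 13030, 13890 and 8971 CPM, so that mouse 3 was at the untreated level.

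Clca3 (Clca1 in current RefSeq), a secreted metalloprotease that cleaves MUC2, followed Fcgbp closely. Its levels were 4829, 2501 and 4807 CPM in control set 1 and 6245, 6288 and 8115 CPM in control set 2. Untreated mutants had 5231, 5520 and 5428 CPM, which lay between the control sets. Treated B6 mice had 8778, 9848 and 9638 CPM, above all 9 untreated libraries, and treated mutants 6279, 9858 and 5220 CPM, with mouse 2 at the treated B6 level and mouse 3 at the level of untreated mutants.

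Zg16, a lectin that binds Gram-positive bacteria in mucus, and Tff3, a trefoil peptide of epithelial repair, formed a pair with another pattern. Zg16 was at 1578, 1430 and 1525 CPM in control set 1, at 1889, 1125 and 1668 CPM in control set 2 and at 2296, 2372 and 2051 CPM in untreated mutants. Treated B6 mice had 1795, 1831 and 2184 CPM and treated mutants 2469, 1968 and 1717 CPM. All 3 untreated mutants were above all 6 untreated B6 libraries, while both treated groups overlapped with untreated B6 mice.

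Tff3 ranged from 419 to 480 CPM in control set 1 (median 474) and from 426 to 523 CPM in control set 2 (median 519). It was at 560, 638 and 545 CPM in untreated mutants, above all 6 untreated B6 libraries. The treated groups overlapped with the untreated ones, at 554, 469 and 620 CPM in B6 mice and 730, 513.5 and 495 CPM in mutants.

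Agr2, a protein disulfide isomerase of the ER that MUC2 needs for folding, was at 473, 361 and 507 CPM in control set 1 and at 571, 679.5 and 811 CPM in control set 2, with no overlap between the control sets. It was at 684, 706 and 614 CPM in untreated mutants, within the range of control set 2. Treated B6 mice had 572, 978 and 765 CPM and treated mutants 1015, 739 and 546 CPM, so that each treated group held both a high and a low mouse.

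Spdef, the ETS transcription factor of goblet cell maturation, was at 25.0, 25.2 and 31.3 CPM in control set 1, at 30.0, 32.3 and 43.6 CPM in control set 2 and at 35.0, 43.2 and 36.1 CPM in untreated mutants. It was at 36.2, 71.3 and 51.3 CPM in treated B6 mice and at 59.8, 48.3 and 41.5 CPM in treated mutants. As for Muc2 and Agr2, mouse 2 was the highest and mouse 1 the lowest of the treated B6 mice.

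Muc13 and Muc4 encode membrane-bound mucins of the apical glycocalyx, which are not confined to goblet cells. Muc13 ranged from 3739 to 4764 CPM in the 6 untreated B6 libraries and from 3972 to 7045 CPM in the other 9, with overlap between all groups. Muc4 was at 78.0, 39.4 and 61.0 CPM in control set 1, at 69.2, 53.5 and 66.1 CPM in control set 2 and at 74.9, 74.4 and 84.7 CPM in untreated mutants. Treated B6 mice had 53.0, 125 and 115 CPM and treated mutants 82.6, 142 and 138 CPM, so the lowest treated library of each genotype stayed near the untreated level.

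**Figure D1:**
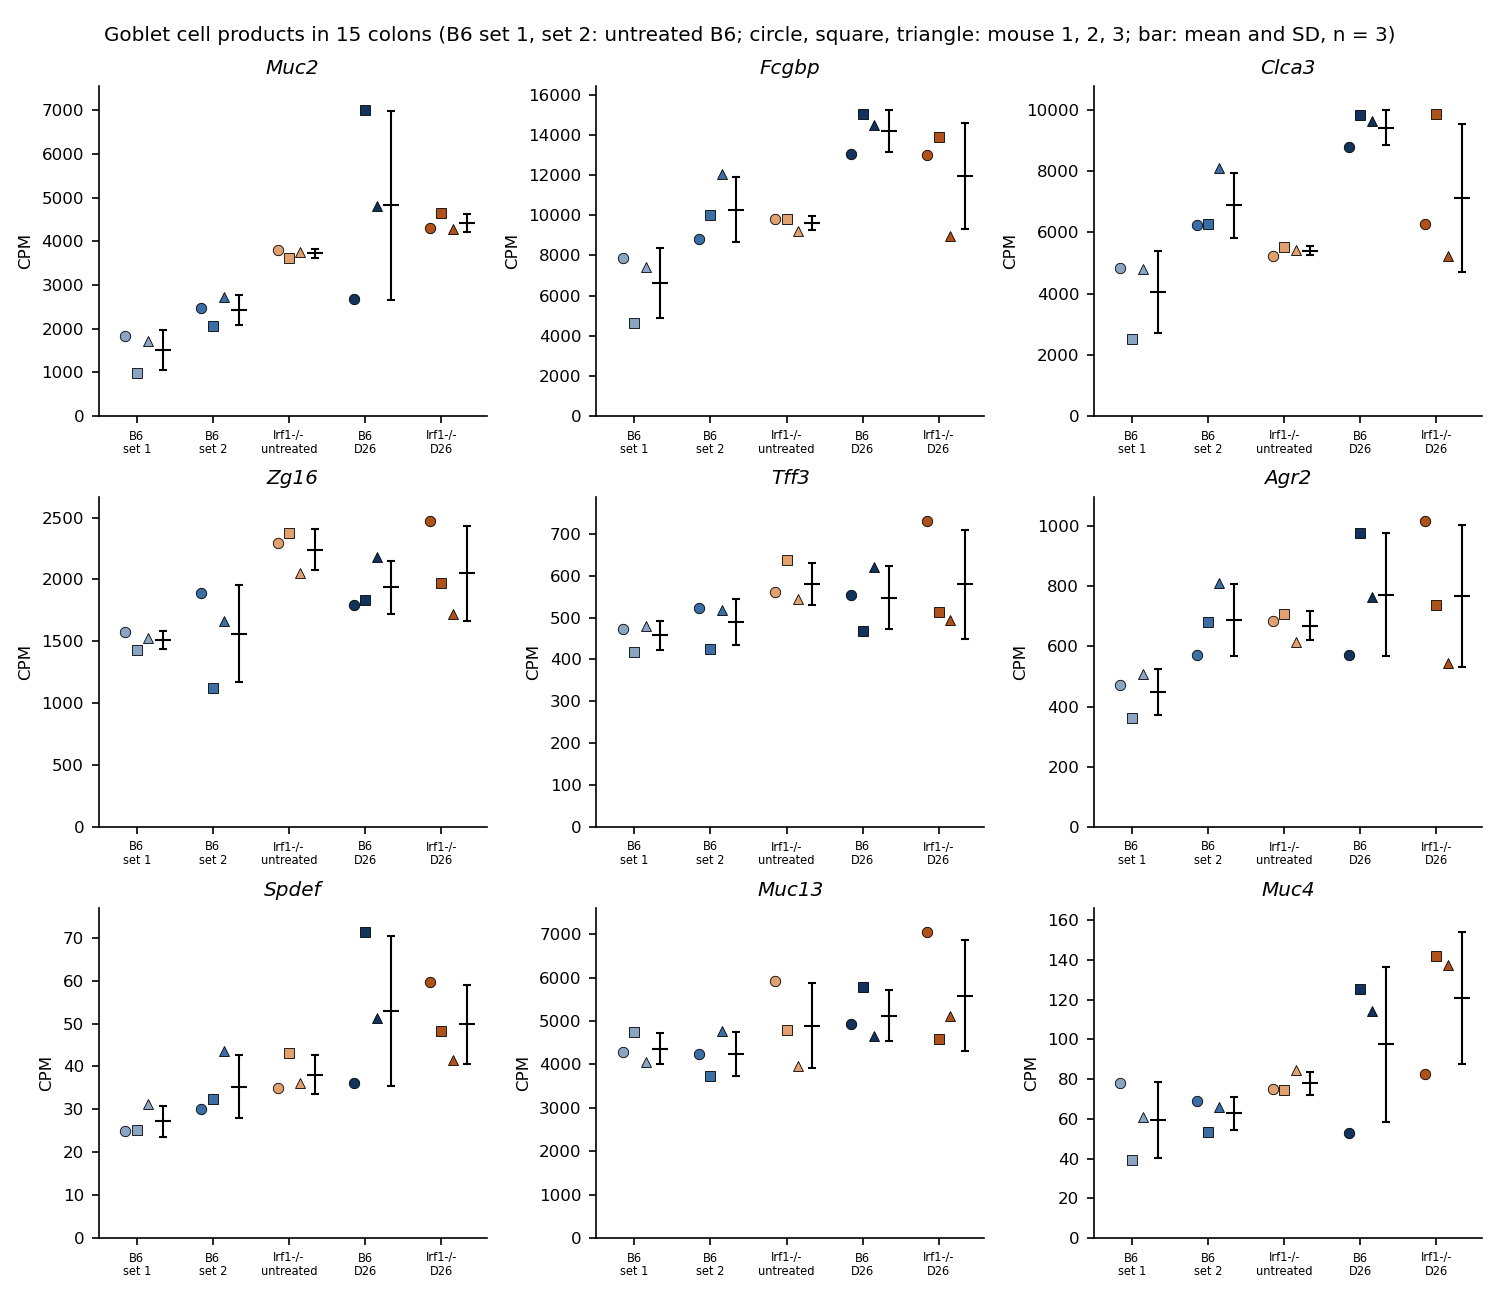
Level of each of the 9 genes in CPM (vertical axis, from 0) in 3 mice of each of 5 groups, with mean and SD beside the points. Muc2 is high and tight in untreated Irf1-/- mutants (3621 to 3810 CPM) and widely spread in treated B6 mice (2668 to 7000 CPM). Mouse 2 of control set 1 is the lowest library for Muc2, Fcgbp, Clca3, Agr2, Muc4 and Tff3.

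On the scale of CPM per kb of exon, the only one used here to compare levels between genes, Clca3 had the highest median over the 15 libraries (1653), followed by Muc13 (1567), Zg16 (1457), Tff3 (1053), Fcgbp (936), Agr2 (526), Muc2 (508), Spdef (15.7) and Muc4 (6.37). The ranges of neighbours in this order overlapped from Clca3 down to Muc2, and the ranges of Spdef (10.8 to 30.9) and Muc4 (3.35 to 12.1) overlapped too. The GENCODE M21 model of Muc2 used for its length has only 7127 bases and may lack much of the repeat region, so its place in this order is uncertain. Muc2 varied the most, by 7.08-fold between the lowest and the highest library, and Tff3 the least, by 1.74-fold. Together the 9 genes took 1.52% of the reads in mouse 2 of control set 1 and 4.06% in treated B6 mouse 2.

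At steady state, the question of the comparison of untreated mutants with control set 2 was what loss of Irf1 alone does. Muc2 was 1.54-fold higher in mutants (log2 FC of 0.62 ± 0.11, SE, 3 mice per group) and Clca3 was lower without passing the test (log2 FC of -0.35 ± 0.12). None of the 9 genes met the rule of the study, which asks for 1.5-fold or more together with an adjusted p below 0.01. In the edgeR fit used here this rule called 0.405% of the 12588 genes tested. Only the limits are those of the study. From its own fits the study reports more genes at these limits, here and in the B6 and Irf1-/- responses to AOM/DSS. Its calls for the members were not used. At the looser limit of an adjusted p under 0.05, Muc2 passed (edgeR quasi-likelihood test, Benjamini-Hochberg adjusted p = 0.0314), against 1.25% of all genes in either direction and 0.437% higher. An unadjusted p under 0.05 was reached by 5 members, beside 10.4% of all genes. With DESeq2, Muc2 (higher) and Clca3 (lower, adjusted p = 0.0168) passed an adjusted p of 0.05, beside 2.53% of all genes.

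The other members did not pass in this comparison. Zg16 had a log2 FC of 0.52 ± 0.17 (edgeR adjusted p = 0.245), Muc4 of 0.31 ± 0.10 (0.244 by the same test), Tff3 of 0.25 ± 0.10 (0.418) and Muc13 of 0.21 ± 0.15 (0.731). Fcgbp, Agr2 and Spdef lay close to 0, at -0.10 ± 0.13, -0.04 ± 0.12 and 0.11 ± 0.14. Mutant and B6 mice did not overlap for Muc2, Muc4, Tff3 and Zg16, which were higher (7.86% of all genes), and for Clca3, which was lower (7.57%). The median log2 FC of the 9 genes was 0.21, and that of all genes was 0.00.

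The Muc2 difference did not pass when any 1 of the 3 mutants was left out (log2 FC of 0.52 to 0.72 and adjusted p of 0.0252 to 0.15 over the 6 fits that leave out 1 mouse). In 1 fit of all 15 libraries neither Muc2 nor any other member passed an adjusted p of 0.05, beside 0.833% of all genes. Against control set 1 in place of control set 2, Muc2 was higher by a log2 FC of 1.30 (edgeR adjusted p = 0.00321), and 5 members passed an adjusted p of 0.05, beside 5.46% of all genes. Those 5 were Muc2, Zg16, Agr2, Spdef and Tff3, and the estimates of Fcgbp, Agr2 and Clca3 turned from negative to positive. Against both sets together no member passed (1.14% of genes did), and Muc2 had a log2 FC of 0.92 (edgeR adjusted p = 0.108).

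Ratios of reads within a library were looked at after the levels had been seen and carry no test. Those with Muc2 differed between the untreated genotypes. Clca3 had 2.53 to 3.06 reads per Muc2 read in the 6 untreated B6 libraries and 1.37 to 1.53 in the untreated mutants. Fcgbp had 3.56 to 4.88 reads per Muc2 read in untreated B6 mice and 2.46 to 2.71 in the mutants. The mutant ratios were lower in both cases, with either control set.

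Of the 8 pairs of Muc2 with another member, 7 had ratios that did not overlap between the untreated genotypes, the exception being Zg16. These pairs all share Muc2, which was itself higher in every untreated mutant than in any untreated B6 library. They are thus not separate observations, and ratios to genes outside the members were not computed. Among all 36 pairs 8 did so, the remaining one being Tff3 with Zg16. After treatment the ratios overlapped, with Clca3 per Muc2 at 3.29, 1.41 and 2.00 in B6 mice and at 1.46, 2.12 and 1.22 in mutants. The ratio of Fcgbp to Clca3 varied less, from 1.41 to 2.08 over all 15 libraries.

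**Figure D2:**
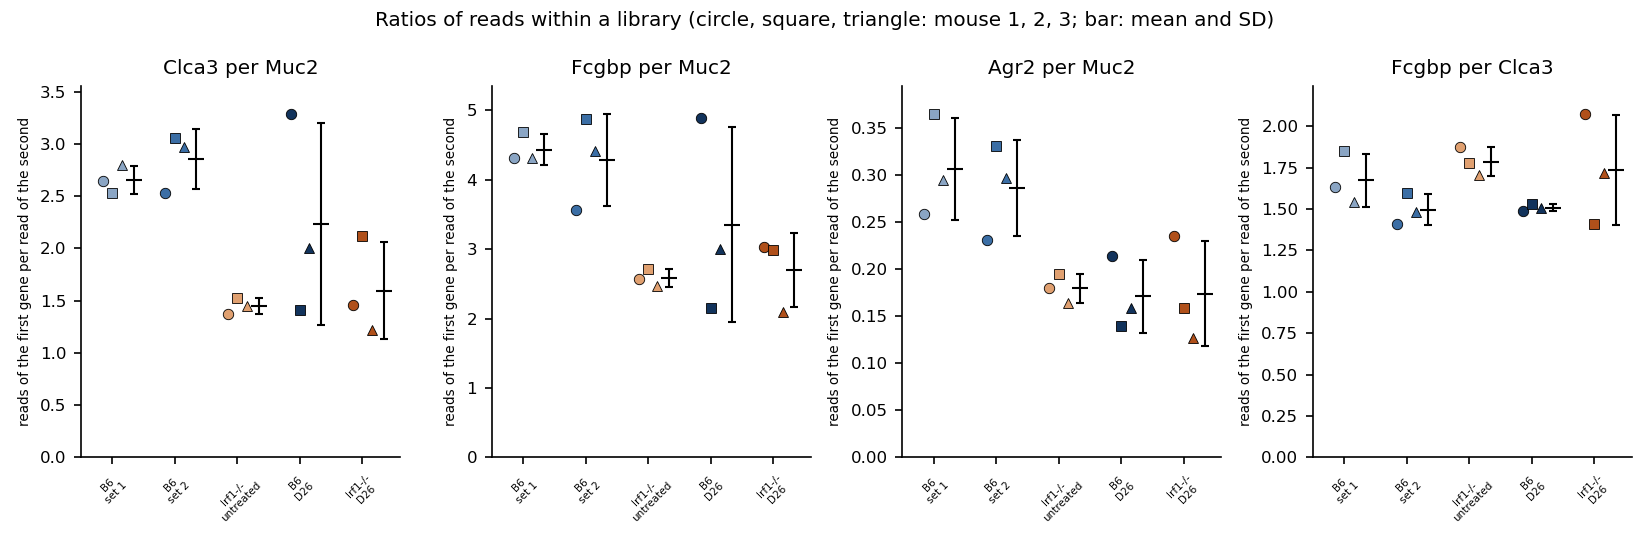
Reads of 1 gene per read of another in the same library (vertical axes, from 0) in 3 mice of each of 5 groups, with mean and SD beside the points. Clca3 per Muc2 is 2.53 to 3.06 in all 6 untreated B6 libraries and 1.37 to 1.53 in untreated Irf1-/- mutants, and both treated groups are spread.

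Treated B6 mice were compared with control set 1 to give the response of resistant mice to AOM/DSS. The estimates of all 9 genes were positive, with a median log2 FC of 0.80 beside 0.01 over all 12643 genes, 51.8% of which were positive. Muc2 was 3.21-fold higher (log2 FC of 1.68 ± 0.34), Clca3 2.34-fold (1.23 ± 0.22), Fcgbp 2.15-fold (1.10 ± 0.18), Spdef 1.96-fold (0.97 ± 0.22) and Agr2 1.74-fold (0.80 ± 0.20). These 5 genes passed an adjusted p of 0.05, beside 8.46% of all genes in either direction and 3.95% higher. Their edgeR adjusted p were 0.0255, 0.0215, 0.0194, 0.0336 and 0.0422 in that order.

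None of the 9 met the rule of the study in the fit used here, where it called 0.0475% of genes, that is 6 genes. The study itself reports many more genes at these limits in this comparison. Of the members, 7 had an unadjusted p under 0.05 (29.5% of genes). With DESeq2 6 passed an adjusted p of 0.05, Zg16 being the sixth (14.3% of genes). Zg16 had a log2 FC of 0.37 ± 0.10 (edgeR adjusted p = 0.0608), Muc4 of 0.72 ± 0.32 (0.171 by the same test), Tff3 of 0.27 ± 0.12 (0.167) and Muc13 of 0.24 ± 0.11 (0.178). The 5 genes and Zg16 did not overlap between the groups, beside 17.2% of all genes that were higher without overlap. Summed pan-epithelial markers were at 11010 to 11450 CPM in treated B6 mice and 10000 to 11110 CPM in control set 1. Squamous markers were at 758 to 1249 CPM against 419 to 803 CPM.

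Single libraries decided how many members passed. Without mouse 2 of control set 1, the lowest library for Muc2, 2 members passed an adjusted p of 0.05 (Fcgbp and Clca3), beside 0.759% of all genes, and Muc2 had a log2 FC of 1.46. Without mouse 1 of control set 1 there was 1 (0.498% of genes). Without mouse 3 of control set 1 (0.127%) or mouse 3 of the treated B6 mice (1.13%) there was none.

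Treated B6 mouse 1 had the lowest level of its group for every member except Tff3 and Muc13. Leaving it out gave 7 passing members, beside 12.1% of all genes, and without mouse 2 there were 4, beside 8.77%. After a correction of each library for GC content, Clca3 alone passed (log2 FC of 1.32, edgeR adjusted p = 0.0371), beside 0.965% of all genes. Muc2 then had a log2 FC of 1.63 (edgeR adjusted p = 0.0655), Fcgbp of 0.94 (0.0621), Agr2 of 0.89 (0.0669) and Spdef of 0.79 (0.121). Spdef and Fcgbp have GC contents above those of 95.3% and 90.3% of genes, Clca3 and Agr2 above 33.0% and 34.1%.

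The control sets differed from each other with no labelled difference between them. In control set 2, Clca3 was higher by a log2 FC of 0.77 ± 0.23, Muc2 by 0.68 ± 0.20, Fcgbp by 0.63 ± 0.20 and Agr2 by 0.62 ± 0.15, each with no overlap between the sets, beside 10.5% of all genes. Their edgeR adjusted p were 0.125, 0.13, 0.135 and 0.0814, so none passed an adjusted p of 0.05 (0.572% of genes did), and 0.0644% of genes met the rule of the study. An unadjusted p under 0.05 was reached by 5 members, beside 17.2% of genes, and with DESeq2 Agr2 passed an adjusted p of 0.05 (0.00056), beside 4.69% of genes. Spdef differed by 0.38 ± 0.14 with overlap, and Muc4, Muc13, Tff3 and Zg16 lay between -0.04 and 0.10.

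With control set 2 as the control of treated B6 mice, the log2 FC fell to 1.01 for Muc2, 0.48 for Fcgbp, 0.47 for Clca3 and 0.18 for Agr2. Muc2, Fcgbp and Clca3 still passed an adjusted p of 0.05 (0.0443, 0.0412 and 0.0401 by edgeR), beside 14.8% of all genes. Agr2 and Spdef did not (0.53 and 0.0959 by edgeR). With both sets as the control, Muc2, Fcgbp and Spdef passed, beside 19.2% of all genes. The estimates of Zg16, Tff3, Muc13 and Muc4 moved by at most 0.09 between the control sets.

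**Figure D3:**
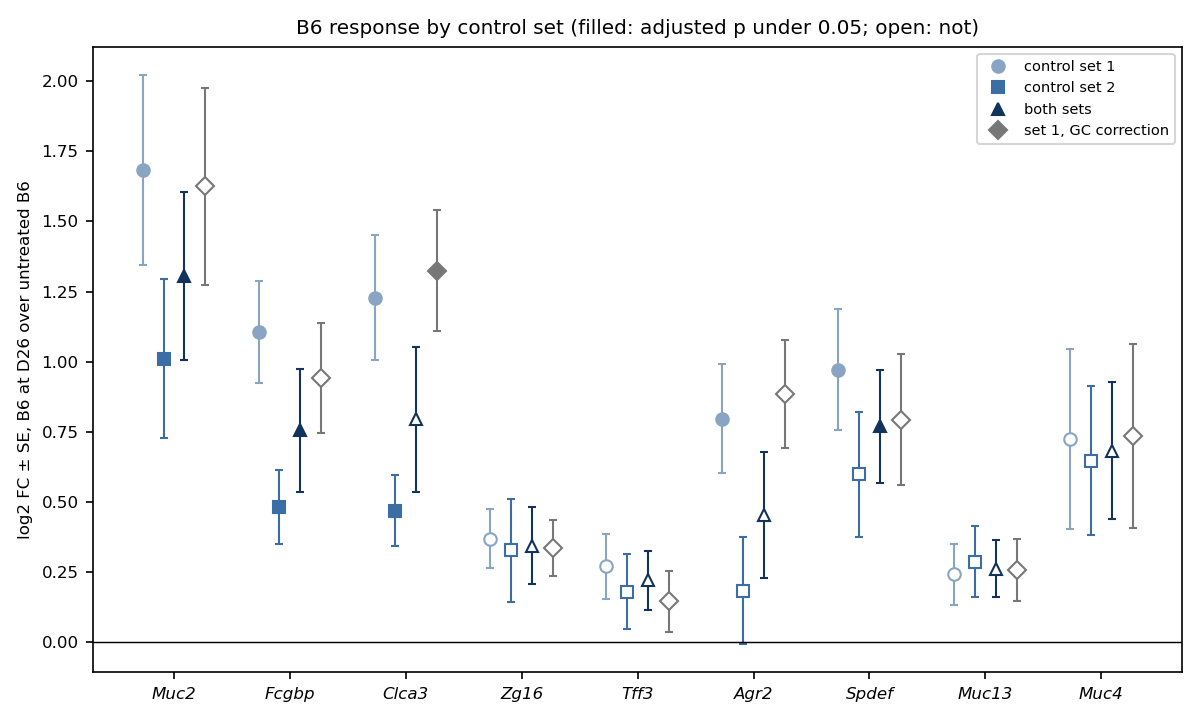
Difference of treated B6 mice from untreated B6 mice (log2 FC with SE, vertical axis) for each of the 9 genes, with control set 1, control set 2 or both as the control, and with control set 1 after a GC correction. Filled symbols have an adjusted p under 0.05, and Muc2 falls from 1.68 with control set 1 to 1.01 with control set 2.

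Treated mutants were compared with untreated mutants for the response in susceptible mice. No member met the rule of the study (0.252% of 12692 genes did) or an adjusted p of 0.05 (2.37%), and 3 members had an unadjusted p under 0.05 (18.6%). With DESeq2, Muc2 and Muc4 had an adjusted p of 0.0082 and 0.00635 beside 6.36% of genes under 0.05. Muc2 was 1.19-fold higher (log2 FC of 0.25 ± 0.07, edgeR adjusted p = 0.0946) and was the only member without overlap, beside 12.5% of all genes. Muc4 had a log2 FC of 0.63 ± 0.18 (edgeR adjusted p = 0.104), Clca3 of 0.40 ± 0.20, Spdef of 0.39 ± 0.14, Fcgbp of 0.32 ± 0.14, Agr2 of 0.20 ± 0.19 and Muc13 of 0.19 ± 0.18. Tff3 (0.00 ± 0.15) and Zg16 (-0.12 ± 0.13) were close to 0. The median over the members was 0.25 beside 0.01 over all genes.

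The difference between the responses, mutants minus B6, was tested as an interaction. It was negative for all 9 genes, with a median of -0.58 beside 0.01 over all 12483 genes, and no member passed the rule of the study (0.016% of genes did) or an adjusted p of 0.05 (0.0481%). Muc2 had the largest difference, at -1.43 ± 0.39 (edgeR adjusted p = 0.112), followed by Clca3 at -0.82 ± 0.34 (0.24) and Fcgbp at -0.78 ± 0.26 (0.164). An unadjusted p under 0.05 was reached by these and Zg16 (-0.49 ± 0.17), beside 16.9% of all genes, and DESeq2 gave Muc2 and Fcgbp an adjusted p of 0.0494 each, beside 3.22% of genes under 0.05. The summed pan-epithelial markers were at 11010 to 11450 CPM in treated B6 mice and at 9056 to 10250 CPM in treated mutants, with no overlap. With libraries scaled on these markers the difference was -1.21 for Muc2, -0.58 for Clca3, -0.56 for Fcgbp, -0.38 for Agr2, -0.37 for Spdef, -0.28 for Zg16 and -0.068 for Tff3, and it was positive for Muc4 (0.14) and Muc13 (0.15).

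This term rests on control set 1. With control set 2 it was -0.75 for Muc2 (edgeR adjusted p = 0.32), -0.15 for Fcgbp and -0.05 for Clca3, and for Agr2 it was 0.03. Without treated B6 mouse 1 it was -1.72 for Muc2, which then passed (edgeR adjusted p = 0.0345), beside 0.336% of all genes.

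At D26 the genotypes overlapped for all 9 genes. Log2 FC of treated mutants over treated B6 mice ranged from -0.42 ± 0.20 for Clca3 (edgeR adjusted p = 0.261) to 0.29 ± 0.30 for Muc4 (0.605), with Muc2 at -0.14 ± 0.27. No member met the rule of the study, which called 0.385% of genes, and none had an adjusted p under 0.05 with edgeR (2.05% of genes) or DESeq2 (7.21%) or an unadjusted p under 0.05 (22% of genes). The same scaling turned Muc2 to 0.098, Agr2 to 0.21 and Spdef to 0.14. Treated B6 mouse 1 and treated mutant mouse 3 were the low libraries for several members, and mutants 1 and 2 and B6 mice 2 and 3 the high ones.

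**Figure D4:**
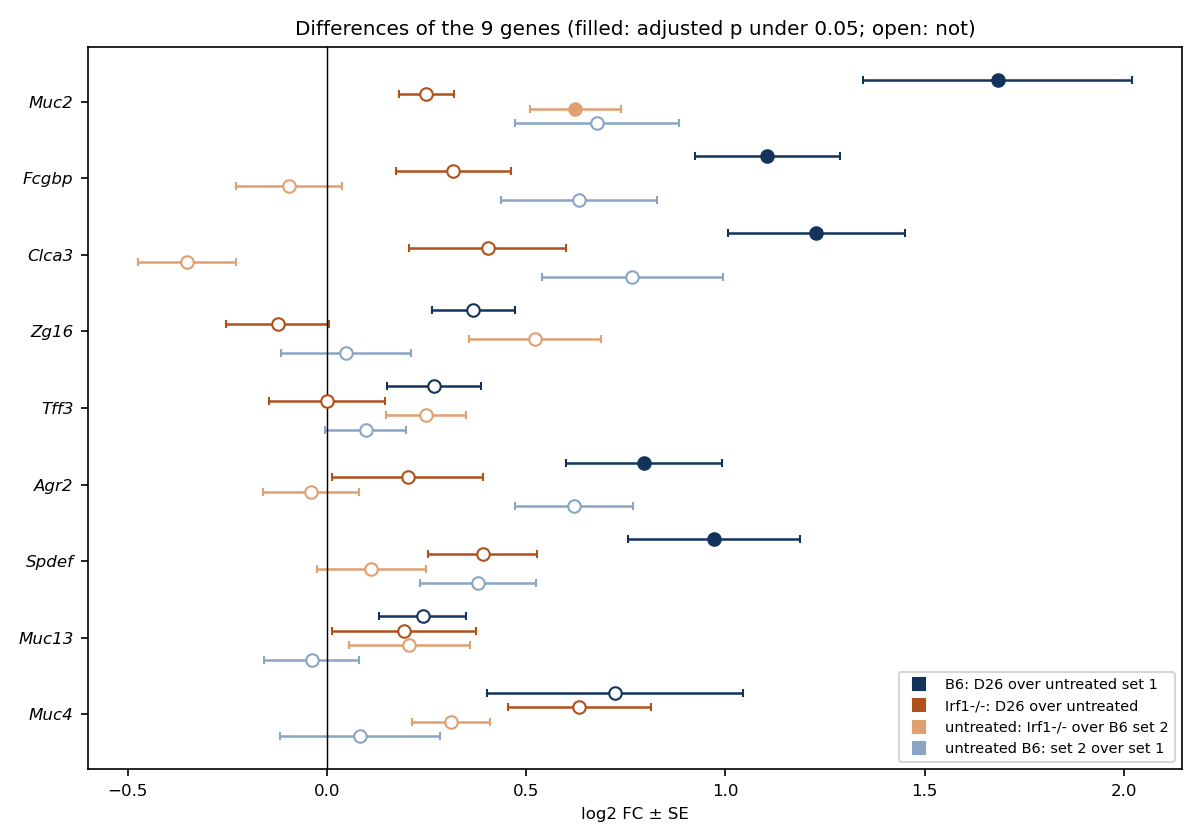
Difference (log2 FC with SE, horizontal axis) of each of the 9 genes in 4 comparisons, with filled symbols for an adjusted p under 0.05. The filled symbols are Muc2, Fcgbp, Clca3, Agr2 and Spdef at D26 in B6 mice and Muc2 in untreated Irf1-/- mutants, and the distance between the control sets is 0.62 to 0.77 for Muc2, Fcgbp, Clca3 and Agr2.

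Across the 15 libraries the members fell into sets that were drawn after seeing their values. Muc2, Fcgbp, Clca3, Agr2 and Spdef had Pearson r between log2 CPM of 0.701 to 0.955 over their 10 pairs, the highest being Fcgbp with Clca3. Tff3 with Zg16 had an r of 0.878. With group means removed these were 0.908 for Fcgbp with Clca3, 0.881 for Agr2 with Spdef, 0.86 for Muc2 with Muc4 and 0.815 for Tff3 with Zg16, and 0.345 at the lowest within the set of 5. The points share libraries and scaling factors, and the values are given as a description.

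The 8 genes most like the mean z-score of the members over the 15 libraries were P2rx4 (r of 0.953), Spink4 (0.941), Kcnk6 (0.94), Cgref1 (0.937), B3gnt9 (0.936), Galnt12 (0.931), Ptprn2 (0.931) and Rab27a (0.93). P2rx4 is an ATP-gated channel, Kcnk6 a potassium channel, Galnt12 an enzyme that starts mucin O-glycans and Rab27a a GTPase of secretory granules. Spink4, a small secreted product of goblet cells, followed the members over the widest range, from 81.6 CPM in mouse 2 of control set 1 to 582 CPM in treated mutant mouse 1. P2rx4 moved little, from 88.9 to 126 CPM.

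The wider goblet program was followed in lists of genes by role. In the difference between the responses as fitted with edgeR, no gene of these lists had an adjusted p under 0.05, beside 0.0481% of all genes. Counts that pass in 1 genotype and not in the other are thus no test of a difference between them. Of 18 measured regulators of the secretory lineage, 4 were higher in treated B6 mice than in control set 1 at an adjusted p under 0.05 and none was lower, with a list median log2 FC of 0.21. Over all genes 3.95% were higher and 8.46% passed in either direction, and the B6 counts of the lists below stand beside the same shares. Atoh1, the master factor of secretory cells, was at 49.8 to 51.6 CPM in control set 1 and 66.3 to 76.2 CPM in treated B6 mice (log2 FC of 0.49 ± 0.08, edgeR adjusted p = 0.0194). The others were Gfi1 (0.81 ± 0.15), which acts after Atoh1, Foxa3 (0.53 ± 0.12) and Creb3l4 (0.64 ± 0.09). In treated mutants Foxa2 alone passed, as lower than in untreated mutants (-0.41 ± 0.07, edgeR adjusted p = 0.027), beside 2.37% of all genes. Its estimate was also negative in treated B6 mice, without passing (-0.37 ± 0.18, edgeR adjusted p = 0.203). The difference between the responses was -0.03 ± 0.21 for Foxa2.

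Of 30 measured folding and ER genes, 7 were higher in treated B6 mice and none lower at an adjusted p under 0.05, beside 3.95% of all genes higher, with a median log2 FC of 0.35. They were the disulfide isomerase P4hb (0.44 ± 0.09), the chaperone Calr (0.49 ± 0.12), the sulfhydryl oxidase Qsox1 (0.40 ± 0.08), the transport and translocation genes Tmed3 (0.41 ± 0.10), Kdelr2 (0.33 ± 0.08), Sec61b (0.41 ± 0.10) and Ssr4 (0.28 ± 0.07). None of 31 passed in the mutants, where the median was 0.11. None of 30 passed in the difference between the responses either, where the median was -0.26. Between the control sets 25 of the 30 were higher in set 2, with a median of 0.22 and none past the limit.

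Granule genes passed at a share close to that of all genes (8.46%). Of 21, Rab27a (0.37 ± 0.10) and Rab3d (0.35 ± 0.09), which serve granule docking, were higher in treated B6 mice at an adjusted p under 0.05, and none passed in treated mutants. Nlrp6, an inflammasome gene that has been linked to granule release by goblet cells, differed by genotype in its RNA, and release was not measured. It was at 143 to 169 CPM in the 6 untreated B6 libraries and at 46.0, 60.0 and 68.7 CPM in untreated mutants (log2 FC of -1.40 ± 0.13, edgeR adjusted p = 0.000691). In treated mice it was at 181, 117 and 151 CPM in B6 mice and 41.4, 46.3 and 62.1 CPM in mutants (-1.60 ± 0.19, edgeR adjusted p = 0.00544). Nlrp6 met the rule of the study in both comparisons and hardly differed between the control sets (-0.01 ± 0.08).

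Glycosylation genes passed in both directions. Of 29 measured in B6 mice, Galnt10 (0.53 ± 0.09) and Galnt12 (0.69 ± 0.13), which start O-glycans, and the sialyltransferase St3gal3 (0.61 ± 0.14) were higher and St3gal4 (-0.63 ± 0.11) lower at an adjusted p under 0.05, beside 8.46% of all genes in either direction. St3gal4 also differed by -0.69 ± 0.16 between the control sets (edgeR adjusted p = 0.0782). Gcnt1, a core 2 branching enzyme, was at 50.8 to 57.5 CPM in untreated mutants and 72.0 to 104.5 CPM in control set 2 (log2 FC of -0.69 ± 0.12, edgeR adjusted p = 0.0235), and met the rule of the study in treated mice (-0.78 ± 0.09, edgeR adjusted p = 0.00544). In treated mutants B3gnt6, the core 3 synthase, was higher than in untreated ones (0.99 ± 0.19, edgeR adjusted p = 0.0364) and St3gal1 lower (-0.31 ± 0.06, 0.0417), and B3gnt6 was not in the other tables. The estimate of St3gal1 was also negative in treated B6 mice, without passing (-0.27 ± 0.10, edgeR adjusted p = 0.119).

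Other goblet and mucus products included the largest difference of any listed gene in B6 mice. Of 20 measured in B6 mice, 6 were higher and none lower at an adjusted p under 0.05, beside 3.95% of all genes higher, with a median log2 FC of 0.38. Ang4, an antimicrobial ribonuclease, was at 17.1, 3.26 and 3.99 CPM in control set 1 and 53.6, 347 and 132 CPM in treated B6 mice (log2 FC of 4.46 ± 0.79, edgeR adjusted p = 0.0206). It was also at 21.2, 89.9 and 235 CPM in control set 2, so untreated B6 mice spanned most of the treated range. Reads of Ang4 may be shared with near-identical angiogenin relatives, and those of Clca genes with each other.

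Clca6 (log2 FC of 1.85 ± 0.34), Spink4 (1.39 ± 0.27), Lrrc26 (0.54 ± 0.12), Ramp1 (0.50 ± 0.11) and Slc12a8 (0.40 ± 0.11) were the other 5. In mutants none of 21 passed after treatment, where Clca6 had a log2 FC of 0.81 ± 0.20 (edgeR adjusted p = 0.0727). Lypd8, a secreted protein that binds flagella, was lower in treated mutants (3289 to 3772 CPM) than in treated B6 mice (4865 to 5210 CPM), at -0.55 ± 0.09 (edgeR adjusted p = 0.0261). Of the other mucins, 3 of 10 listed were measured and none passed in the 6 comparisons as fitted with edgeR. Muc1 passed as higher in treated mutants over untreated ones with DESeq2 (6.36% of all genes) and with pan-epithelial scaling (3.06%). Mcam, an adhesion molecule of vessels on that list, passed in the B6 response with both control sets (19.2%) and in 1 fit of all 15 libraries (19%). Muc1, a membrane mucin, was at 9.61, 12.3 and 11.9 CPM in treated mutants and 3.78 to 8.40 CPM in the other 12 libraries (0.98 ± 0.23 over treated B6 mice, edgeR adjusted p = 0.0648).

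**Figure D5:**
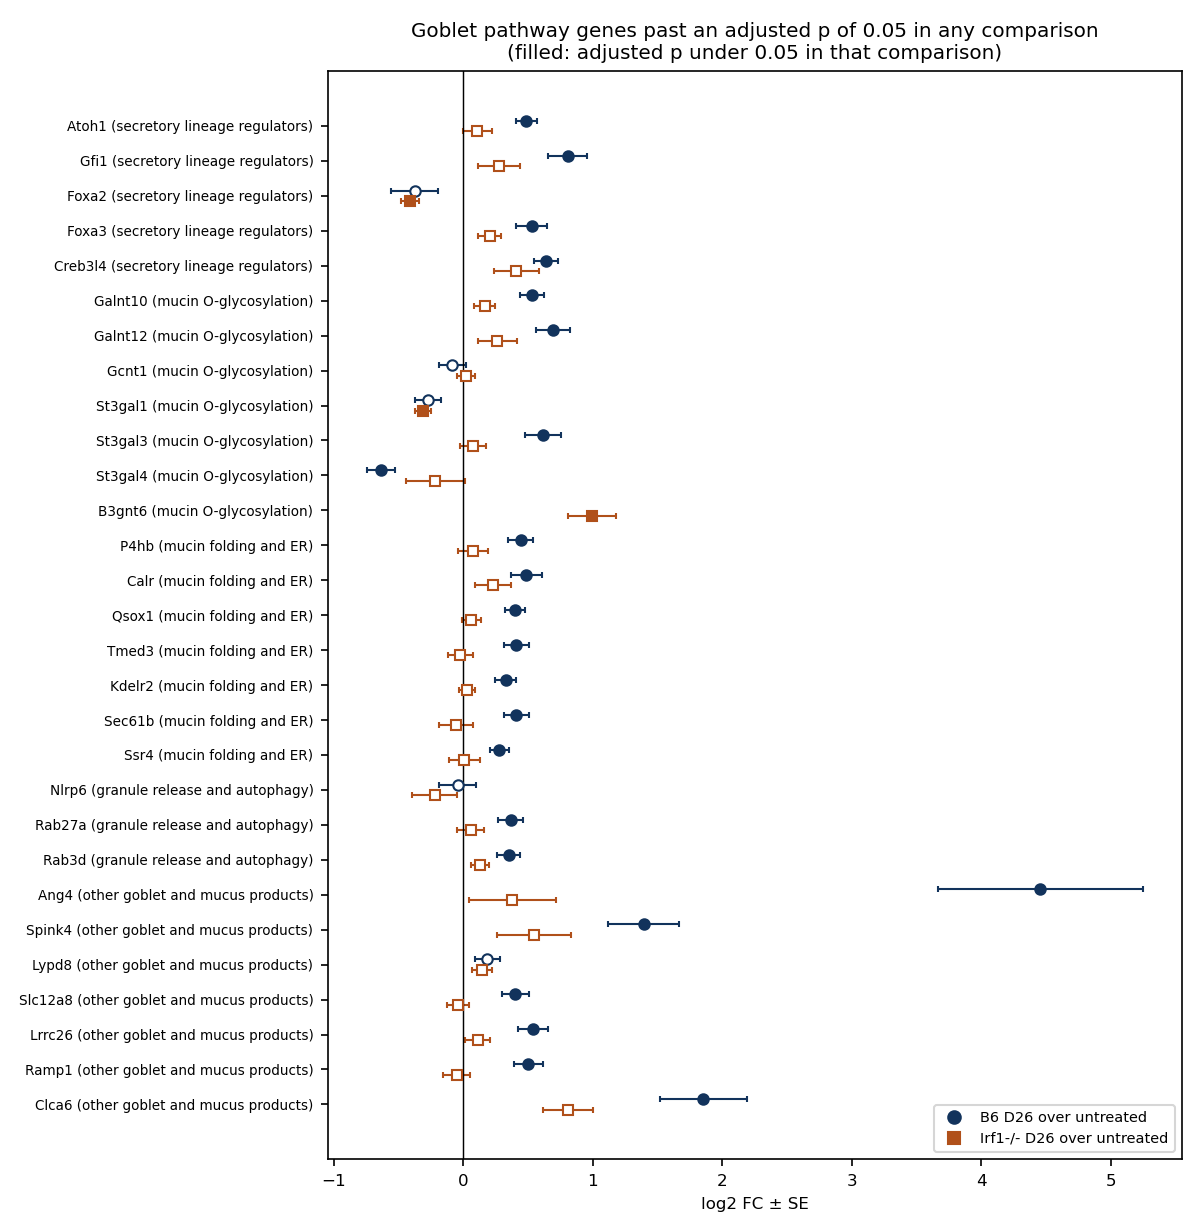
Goblet pathway genes with an adjusted p under 0.05 in at least 1 comparison, with the difference of D26 from untreated mice (log2 FC with SE, horizontal axis) in B6 mice (circles) and Irf1-/- mutants (squares). Ang4 has the largest difference in B6 mice (4.46), and Nlrp6 and Gcnt1 are shown because they differed by genotype.

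These list counts in B6 mice depended on the control mice and on the processing. With control set 2 as the control, at an adjusted p under 0.05 (14.8% of all genes), none of the ER genes passed, 2 regulators were higher (Atoh1 and Foxa3), and 3 glycosylation genes were higher (Galnt10, Galnt12 and St3gal3) with 1 lower (St3gal1). In that comparison 5 granule genes were higher (Rab27a, Rab3d, Vamp8, Capn9 and Map1lc3b), and of the other products 3 passed, 2 of them higher, with neither Ang4 nor Spink4 among them. When any 1 mouse of control set 1 was left out, no gene of the lists passed except Ang4 without mouse 1. Few genes passed at all in these fits, with 0.498%, 0.759% and 0.127% of all genes without mouse 1, 2 and 3. Without treated B6 mouse 3 (1.13% of all genes), Creb3l4 and Clca6 passed. Without treated B6 mouse 2 (8.77% of all genes) there were 3 regulators, 3 ER genes and 6 other products, all higher, with 4 glycosylation genes higher and 2 lower. Without treated B6 mouse 1 (12.1% of all genes), 6 regulators, 14 ER genes, 8 other products and 1 granule gene were higher, and of the glycosylation genes 7 were higher and 3 lower. After the GC correction (0.965% of all genes) no ER or granule gene passed, 2 regulators (Atoh1 and Creb3l4) and 2 other products (Ang4 and Clca6) were higher, and of the glycosylation genes 1 was higher and 1 lower. With pan-epithelial scaling (12.1%) no ER or granule gene passed either, 4 regulators were higher and 1 lower, 3 other products were higher, and 2 glycosylation genes were higher and 2 lower. In the Irf1-/- response Clca6 passed as higher with the replicate block (2.85% of all genes) and with pan-epithelial scaling (3.06%). It also passed without treated mutant 1 (2.81%) or 2 (0.89%). Cdx2, Creb3l1 and Notch2 passed as higher with that scaling and with DESeq2 (6.36%). With DESeq2, 1 regulator, 1 glycosylation gene and 1 other product were lower. Leaving out any 1 untreated mutant left no list gene passing (0.11% to 0.213% of all genes). Nlrp6 and Gcnt1 concern the genotype and were not part of these fits.

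Markers of other cell types were set beside these levels. Absorptive colonocyte markers (10 measured) summed to 4582 to 5026 CPM in control set 1, 2664 to 4327 CPM in control set 2, 3595 to 4064 CPM in untreated mutants, 3241 to 4218 CPM in treated B6 mice and 2552 to 3626 CPM in treated mutants. Deep crypt secretory markers (4, of which Agr2 is a member and Spink4 is on another list) were at 627 to 984 CPM in control set 1 and at 1098 to 2290 CPM in the other groups. Leukocyte markers (11) were at 339 to 556.5 CPM in control set 1, 291 to 399 CPM in control set 2 and 346 to 437.7 CPM in untreated mutants. They were at 463 to 668 CPM in treated B6 mice, which overlapped with control set 1, and at 575 to 592 CPM in treated mutants. Control set 1 had thus the highest absorptive sums and the lowest deep crypt secretory sums, and their part in the member levels was not tested.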

How the data were processed

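Total RNA of distal colon was depleted of ribosomal RNA and sequenced as stranded libraries of 50 bp pairs. The submitters' processing notes name TopHat2 2.0.9, Bowtie 1.0.0, featureCounts, edgeR and the mm9 build, and the strand setting of counting is not given in the sources used here. Per gene, the authors deposited raw read counts in 3 tables, filtered at 5 CPM in 3 libraries. The tables also hold CPM values, log2 fold changes and p-values from the authors, none of which was used. Repeats in Muc2 and Fcgbp, and the near-identical Clca and angiogenin families, make their counts uncertain.

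Counts were scaled by TMM and fitted with edgeR 4.0.16 (R 4.3.3), quasi-likelihood, on all genes of the tables compared, with Benjamini-Hochberg adjustment. Only the groups compared entered a fit. CPM in the text was scaled over all 15 libraries on the 12370 genes in all tables, while each log2 FC came from its own fit. The untreated mutants are in 2 tables and were used once per fit. Each p-value sets a difference of group means against the spread between mice (3 per group), which the fit estimates partly from all genes. Levels per kb, GC content and exons came from GENCODE M21 (GC for 99.1% of genes). Ratios and shares used counts.

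The members and gene lists were chosen with earlier results of these data known. Named were all members, genes of each list with an adjusted p under 0.05 in any comparison (otherwise up to 3 with the smallest p), and the 8 genes with the highest Pearson r to the members' mean z-score of log2 CPM (prior count 2). Alternatives were RLE size factors, DESeq2 1.42.0, 1 fit of 15 libraries, a replicate block, a filter of 10 CPM, an adjusted p under 0.05 alone, the other or both control sets, lowess GC correction (span 0.3), scaling on pan-epithelial genes and leaving out each mouse. The fit was also run on counts simulated with the means and dispersions of the B6 response groups, and no result here rests on that run. Python 3.11.15, numpy 2.4.6, pandas 2.3.3 and matplotlib 3.10.9 were used.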

Additional observations from a re-analysis of the deposited data

How the results depend on the processing

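The calls were limited by 3 mice per group and by the choice of untreated B6 mice. By the rule of the study no member was called in the main fits. With DESeq2 it called 1 member at steady state, 5 in the B6 response, 1 in the Irf1-/- response and 1 between the control sets. It called 4 in the B6 response in 1 fit of 15 libraries, and at steady state 1 with pan-epithelial scaling and 1 with control set 1. With an adjusted p under 0.05 alone there were 1 at steady state (1.25% of all genes) and 5 in the B6 response (8.46%). Over all settings that keep every mouse, this limit included, 41 to 157 of all genes were called at steady state and 0 to 1070 in the B6 response. The ranges were 13 to 301 in the Irf1-/- response and 6 to 144 between the control sets. Shares by the rule in each single setting are not given, so the member counts by the rule above cannot be set against all genes. Leaving out 1 mouse gave 0 to 2 members in the B6 response, beside 0 to 152 of all genes. In the Irf1-/- response it gave 0 to 1, beside 0 to 61 of all genes.

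Of 864 log2 FC of members under the alternatives, 819 kept their direction, and those that did not had a main value of at most 0.589 in size. With control set 1, the steady-state values became 0.53 for Fcgbp, 0.58 for Agr2 and 0.41 for Clca3, with both sets 0.18 for Fcgbp and 0.23 for Agr2, and with control set 2 the difference between responses became 0.0312 for Agr2. Pan-epithelial scaling gave 0.0756 for Tff3 in the Irf1-/- response, 0.14 for Muc4 and 0.15 for Muc13 in the difference between responses, and 0.10 for Muc2, 0.21 for Agr2 and 0.14 for Spdef between treated genotypes, where the GC correction gave 0.042 for Spdef.

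Leaving out 1 mouse turned these directions, with the range given. At steady state it was -0.20 to 0.0297 for Fcgbp and -0.16 to 0.0933 for Agr2, and in the Irf1-/- response -0.20 to 0.10 for Tff3, -0.0088 to 0.35 for Muc13 and -0.0551 to 0.40 for Agr2. In the difference between responses it was -0.38 to 0.14 for Muc4 and -0.26 to 0.11 for Muc13. Between treated genotypes it was -0.43 to 0.23 for Muc2, -0.14 to 0.17 for Tff3, -0.29 to 0.19 for Agr2, -0.30 to 0.18 for Spdef, -0.10 to 0.23 for Muc13 and -0.0948 to 0.18 for Zg16, and between control sets -0.14 to 0.33 for Muc4, -0.13 to 0.0497 for Muc13 and -0.11 to 0.24 for Zg16. The cause was not tested.

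Mice with the same number share only that number, with correlations of their deviations from -0.22 to 0.25. With the replicate block, 0 members were called in any comparison, and at an adjusted p under 0.05 the 5 of the B6 response became 0 (Muc2 at 1.62, adjusted p = 0.0768) while Muc2 passed at steady state (0.034). No gene of the goblet lists passed in the B6 response with the block, beside 0.482% of all genes. List counts under the alternatives were added after seeing the data.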
